A study of Mus musculus with 6 samples.

Results

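Complement is a cascade of plasma and tissue proteins that coats targets, recruits leukocytes and can pierce membranes. The genes examined here are 9 of its components and receptors: the proteases C1ra and C1s1, the substrate components C4b and C2, the central component C3, the alternative pathway protease Cfb, the C1 inhibitor Serping1, and the anaphylatoxin receptors C3ar1 and C5ar1. They were chosen by symbol, matched to NCBI Gene identifiers, and all 9 were found among the 18460 genes listed in at least 1 tumor.

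RNA was sequenced from 6 whole breast tumors of Balb/c mice, each tumor from a separate animal. All 6 mice carried PyMTtg, the polyoma middle T antigen that drives mammary tumors from the MMTV promoter, and Rag1KO, which leaves the host without its own mature T and B cells, and all received sorted CD4+ T cells at 4 weeks of age. The 3 control tumors came from PyMTtg;Rag1KO mice. The 3 test tumors came from K14-TSLPtg;PyMTtg;Rag1KO mice, in which the keratin 14 promoter drives the cytokine TSLP in keratinocytes. Tumors were collected at an endpoint age of 18 to 20 weeks. The comparison asks how complement expression differed between tumors that grew with and without the TSLP transgene in hosts given the same T cells.

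The libraries held 8373390 to 9449565 expected counts, the estimated number of reads per gene summed over genes. The labelled tissue was matched by its epithelial markers: Krt18, the most abundant of 6, ranged from 335 to 1206 FPKM (fragments scaled to transcript length and to library depth), and no epithelial marker was at 0. Tslp itself had 2, 2 and 3 counts in control tumors 1, 2 and 3, and 12, 7 and 2 in test tumors 1, 2 and 3. Test tumor 3 was thus within the range of the controls, and at this depth tumor Tslp did not separate the groups. Rag1 was listed at 0.07 to 0.43 FPKM in the 6 tumors. A value per gene does not show which part of Rag1 the reads came from, so it does not check the deletion.

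Control replicate 2 stood apart from the other controls. Over genes, its log2 CPM (counts scaled to library size) had a Pearson r of 0.874 with control 1 and 0.908 with control 3, but 0.921, 0.927 and 0.935 with test tumors 1, 2 and 3. Genes are not independent replicates, so these values only describe likeness between libraries. The counts of genes called and the fold changes of the 9 genes that this tumor moved most are given with and without it.

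As background, the classical pathway starts when C1q binds a target and its attached proteases C1r and C1s cut C4 and C2, which form a C3-cutting enzyme. The alternative pathway builds such an enzyme from C3 and factor B after factor D has cut factor B. Cleavage of C3 and C5 releases C3a and C5a, which act through C3ar1 and C5ar1 on myeloid cells, and the liver makes most circulating complement while macrophages, fibroblasts and epithelial cells make it locally.

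The 9 genes did not move as a block. C3 and C4b were lower in mean in test tumors, Serping1 and C1s1 were higher in every test tumor than in any control, both receptors were lower in mean, and C2 and Cfb split the controls. None of the 9 passed edgeR's quasi-likelihood test and Benjamini-Hochberg adjustment over 13706 tested genes, and neither did any other gene (0.0% called, lowest adjusted p = 0.394). At an unadjusted p under 0.05 the same test took 2 of the 9, C3 and Serping1, beside 8.41% of all tested genes, or 1153. With 1 tumor left out the 1153 became 654 (without control 1) to 2020 (without control 2), with 701 without control 3. The 2 became 3 without control 1 (Cfb, C2 and Serping1) and 1 without test 2 or test 3 (Serping1). Without control 2 they were Serping1 and C3ar1. C3 was thus above 0.05 without control 1, control 2, test 2 or test 3, and also with limma on FPKM. DESeq2 called 343 genes at an adjusted p under 0.05 and limma on log2(FPKM + 1) called 1, none of them among the 9. Without control replicate 2, edgeR called 182 genes, again none of the 9.

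Groups that do not overlap gave another count. Every test tumor was above every control for 2 of the 9 genes, C1s1 and Serping1, beside 6.12% of all tested genes, and below every control for 2, C4b and C5ar1, beside 5.87%. Of the 9 log2 fold changes, 4 were positive and 5 negative. Their median was -0.59, the value of C1ra, against 0.02 over all tested genes. That median rested on control replicate 1 and was 0.11 without it.

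**Figure D1:**
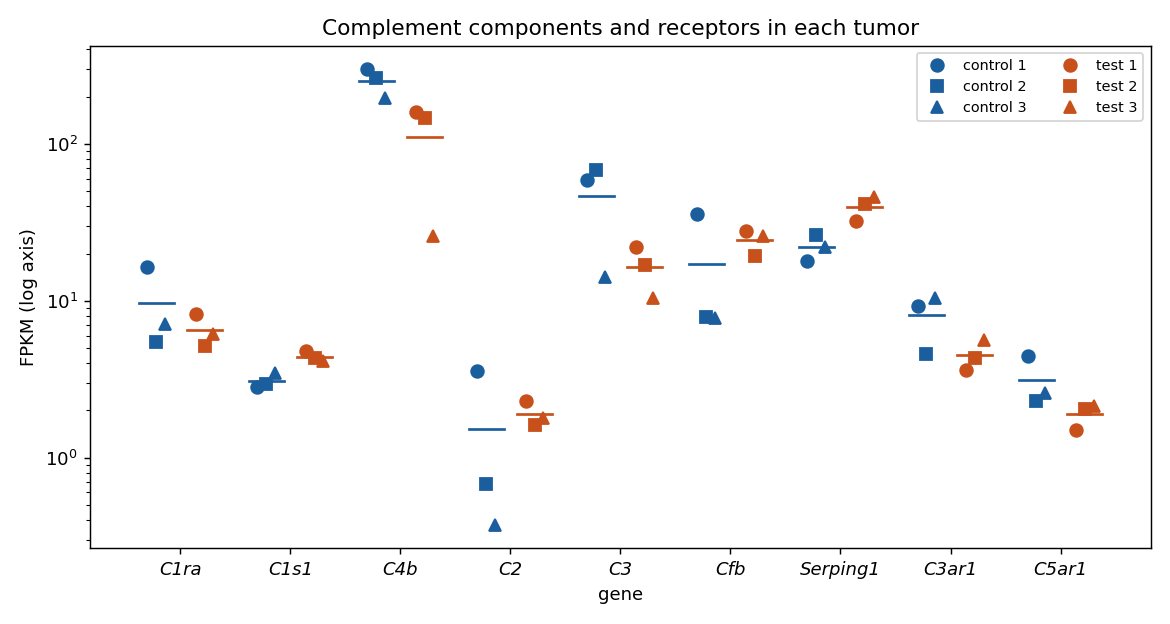
FPKM of each of the 9 genes (log axis) in the 3 control tumors (blue) and 3 test tumors (orange); marker shapes give the replicate number and short lines the group means. C4b is the most abundant gene in every tumor but test 3, and Serping1, C1s1, C4b and C5ar1 have groups that do not overlap.

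Levels spanned a wide range. By mean FPKM over the 6 tumors the order was C4b at 182, C3 at 31.6, Serping1 at 30.8, Cfb at 20.7, C1ra at 8.06, C3ar1 at 6.29, C1s1 at 3.74, C5ar1 at 2.50 and C2 at 1.72. The order differed between groups: C3 (46.7) was above Serping1 (22) and Cfb (17.1) in the control means, and below them in the test means (16.4, 39.6 and 24.3). The ranges of each neighbouring pair in that order overlapped across tumors. C4b alone took 73.7% to 83.3% of the expected counts of the 9 genes in 5 tumors and 34.1% in test tumor 3. The 9 together made up 0.220%, 0.191% and 0.130% of all expected counts in control tumors 1, 2 and 3, and 0.119%, 0.108% and 0.0417% in test tumors 1, 2 and 3.

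C4 is the component whose cleaved form binds covalently to targets, and mice carry the copies C4b and C4a on chromosome 17. C4b was at 301, 261 and 197 FPKM in control tumors 1, 2 and 3, and at 159, 146 and 25.9 FPKM in test tumors 1, 2 and 3. The groups did not overlap, and test tumor 3 was far below the other two test tumors. C4b had a log2 fold change of -1.20 (SE 0.627), with an adjusted p of 0.675 by edgeR's quasi-likelihood test and Benjamini-Hochberg adjustment. Before adjustment p was 0.0947 in this test, and 0.0287 with the replicate number as a block. The unadjusted p was 0.0433 with DESeq2, and 0.0470 and 0.0471 with limma on FPKM. No adjusted p of C4b was below 0.450 under any alternative. An exact two-sided permutation test gave p = 0.1, the smallest value that 3 tumors against 3 allow. Without test tumor 3 the log2 fold change was -0.72. Whole tumors were measured, so here and for the other genes fewer cells of a type and less RNA per cell cannot be told apart.

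C4a, annotated by RefSeq as a transcribed pseudogene in this genome, lies 65189 bases from C4b. The longest GENCODE transcripts of the pair were 96.1% identical, with 207 of 5367 aligned bases different, and 16.5% of all 100-base stretches of C4b were found unchanged in C4a (35.2% of 50-base stretches). Reads from such stretches have no unique origin, so the split of counts between the copies is uncertain. The 90-base stretch of coding sequence within 1 exon of C4b (exon 21 of 41) with the most differences is shown because reads there can be told apart. It lies at chr17:34735430-34735519, minus strand, and the matching C4a bases lie at chr17:34816086-34816175, minus strand, build GRCm38, with the 14 bases that differ in capitals.
C4b: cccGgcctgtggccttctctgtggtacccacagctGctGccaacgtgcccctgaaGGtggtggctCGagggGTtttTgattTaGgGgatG
C4a: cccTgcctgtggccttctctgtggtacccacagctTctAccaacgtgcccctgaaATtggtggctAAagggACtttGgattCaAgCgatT

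C4a had 24.2, 21.8 and 16.1 FPKM in control tumors 1, 2 and 3, and 13.5, 7.72 and 1.67 FPKM in test tumors 1, 2 and 3. Its tumors stood in the same order as those of C4b, again with no overlap, and test tumor 3 was lowest for both. The log2 fold change of C4a was -1.45 (SE 0.637), and was -2.09 without test 1 and -0.96 without test 3. Expected counts of C4b were 11.9 to 19.2 times those of C4a across tumors. With the copies' counts summed, a choice made after seeing the data, the log2 fold change was -1.21.

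C1r and C1s are the serine proteases of the C1 complex. C1s1 had 2.81, 2.95 and 3.44 FPKM in the controls and 4.75, 4.31 and 4.16 FPKM in the test tumors. All 3 test tumors were above all 3 controls, and the spread within each group was small (3.07 ± 0.331 in controls and 4.41 ± 0.307 in test tumors, mean ± SD, n = 3 each). The log2 fold change was 0.54 (SE 0.297), with, by edgeR's quasi-likelihood test and Benjamini-Hochberg adjustment, an adjusted p of 0.686 and, by the exact permutation test, p = 0.1. The gene had only 76 to 117 expected counts per tumor.

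C1ra went the other way in mean, through 1 tumor. It was at 16.3, 5.42 and 7.09 FPKM in control tumors 1, 2 and 3, and at 8.29, 5.14 and 6.12 FPKM in test tumors 1, 2 and 3. Control 1 was high and the other 5 tumors overlapped. Its log2 fold change was -0.59 (SE 0.473), turned to 0.11 without control 1 and was -0.89 without control 2. The FPKM ratio of C1ra to C1s1, whose products act in one complex, was 5.81 in control 1 and 1.19 to 2.06 in the other tumors.

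Both proteases have a close copy on chromosome 6. C1rb, 98.0% identical to C1ra over 2429 aligned bases, stayed at 0.31 to 1.08 FPKM and was not tested. C1s2, 95.9% identical to C1s1, was at 0.15, 0.65 and 0.38 FPKM in controls and 0.94, 0.71 and 0.81 FPKM in test tumors, so its groups did not overlap, in the same direction as C1s1 (log2 fold change 1.03, SE 0.610). C1s2 had only 3.60 to 21.2 counts per tumor, and its log2 fold change was 0.68 without control 1 and 1.58 without control 2. The split of reads between these copies is uncertain too. Summed with their copies, C1s1 had a log2 fold change of 0.60 and C1ra of -0.54.

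C1q, the part of C1 that recognises targets and is made mainly by macrophages, was far more abundant than its proteases. C1qb was at 100.1, 85.6 and 167 FPKM in control tumors 1, 2 and 3, and at 76.4, 210.4 and 113 FPKM in test tumors 1, 2 and 3. The groups overlapped, with test 2 highest and test 1 lowest. Within each tumor the 3 chains kept close to one ratio: C1qa was 0.844 to 1.05 times C1qb and C1qc 0.777 to 0.966 times C1qb. Log2 fold changes were 0.41 for C1qa (SE 0.443), 0.22 for C1qb (SE 0.446) and 0.03 for C1qc (SE 0.408). Without test 2 they turned to -0.14, -0.32 and -0.41, and C1qc also turned without control 1 (-0.06) or control 2 (-0.17), with limma on FPKM (-0.02 with either pseudocount) and with the replicate block (-0.03).

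C2 and Cfb are related proteases that serve the same step in the classical and the alternative pathway. Their genes lie 87 bases apart on chromosome 17, Cfb at chr17:34856374-34862514 and C2 at chr17:34862602-34882100. Cfb was at 35.7, 7.88 and 7.72 FPKM in control tumors 1, 2 and 3, and at 27.7, 19.3 and 26.0 FPKM in test tumors 1, 2 and 3. C2 was at 3.55, 0.68 and 0.37 FPKM in the same controls and at 2.29, 1.62 and 1.79 FPKM in the same test tumors. Both genes had the same tumor order: control 1 highest, the test tumors in the middle, controls 2 and 3 lowest. Cfb exceeded C2 in every tumor, by up to 20.9 times.

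For both genes the controls spread more widely than the group means differed. For C2 the highest control was 10.5 times the lowest in CPM while the test tumors spanned 1.30 times, and for Cfb these were 5.10 and 1.32 times. Log2 fold changes were 0.46 for Cfb (SE 0.629) and 0.25 for C2 (SE 0.828). Without control 1 they were 1.69 (unadjusted p = 0.000975) and 1.90 (unadjusted p = 0.0198), and by edgeR's quasi-likelihood test and Benjamini-Hochberg adjustment the adjusted p was 0.979 for Cfb, in a range of 0.690 to 0.997 over its alternatives, and 1.00 for C2, in a range of 0.759 to 1.00. Without control 2 or control 3, Cfb was at 0.10 and 0.09, and C2 reversed to -0.12 and -0.22. Counts of C2 were low: control 3 had 9, with an exact 95% Poisson interval of 4.12 to 17.1, against 87 in control 1 (69.7 to 107). Such intervals cover counting error only, and reads that cross from one gene into the other were not tested.

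**Figure D2:**
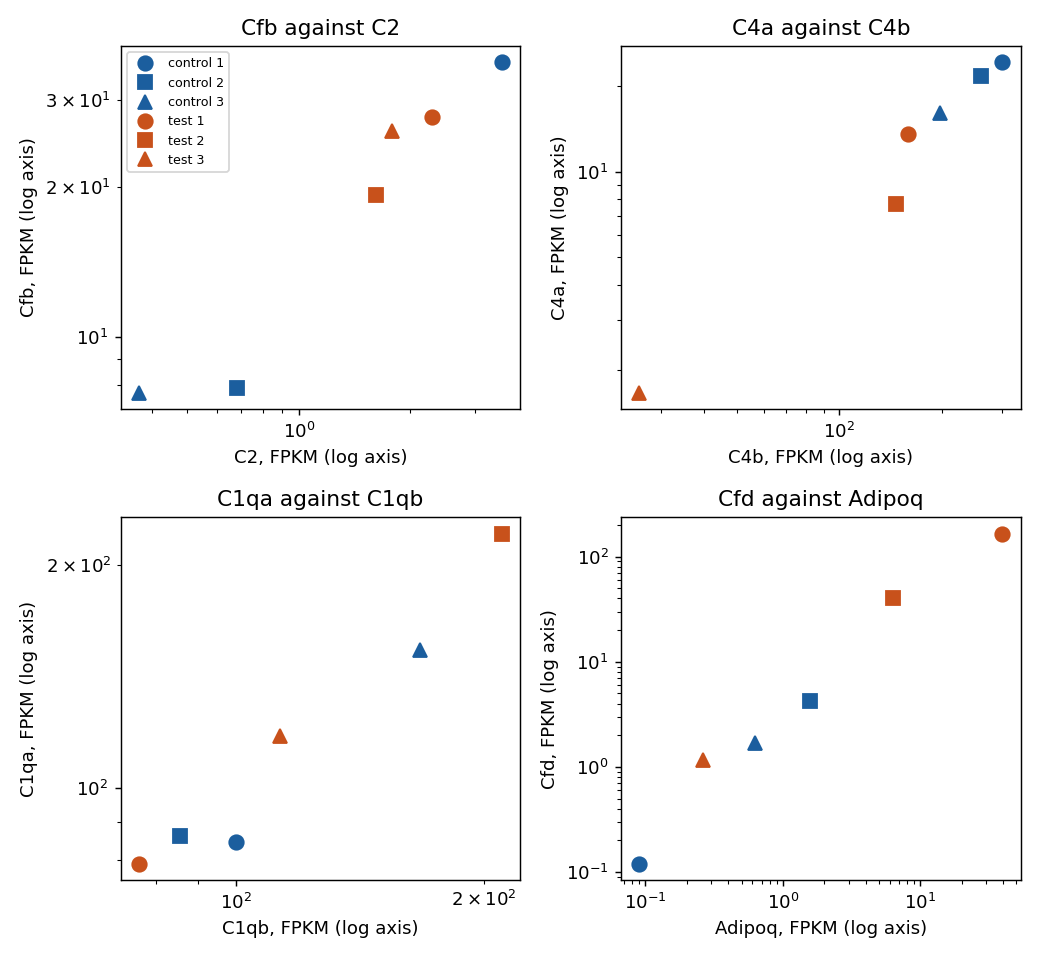
FPKM of one gene against another on log axes, 1 point per tumor (blue, control; orange, test; shapes give the replicate number), for Cfb and C2, C4a and C4b, C1qa and C1qb, and Cfd and Adipoq. In the first pair control 1 lies above the test tumors and controls 2 and 3 below them, and in the last the tumor order is the same for both genes.

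C3 is the component on which all activation routes meet. C3 was at 58.5, 67.7 and 14.1 FPKM in control tumors 1, 2 and 3, and at 21.9, 16.8 and 10.5 FPKM in test tumors 1, 2 and 3. Controls 1 and 2 were high, and control 3 lay among the test tumors, so the groups overlapped. On average C3 was 2.87-fold lower in test tumors, a log2 fold change of -1.52 (SE 0.577). By edgeR's quasi-likelihood test p = 0.0313 became an adjusted p of 0.533 after Benjamini-Hochberg adjustment, with a range of 0.166 to 1.00 over the alternatives, and the exact permutation test gave p = 0.3. The log2 fold change was -1.21 without control 2 and -1.96 without control 3. The unadjusted p of C3 was above 0.05 without control 1, control 2, test 2 or test 3 and with limma on FPKM.

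C3 and C4b did not share 1 tumor order. The FPKM ratio of C4b to C3 was highest in control 3, where C3 was low and C4b was not, and lowest in test 3, at 2.47. The ratio of C3 to Cfb separated the groups more evenly: it was 1.64, 8.59 and 1.83 in control tumors 1, 2 and 3, and 0.792, 0.870 and 0.403 in test tumors 1, 2 and 3. Every control was above every test tumor in this ratio, which was chosen after the values were seen and was given no test.

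The window from 250 bases before to 50 after the annotated start of C3 is shown because C3 is the central component (RefSeq, GRCm38.p6, chr17:57228087-57228386, minus strand). In all, 5 of the 9 genes matched the promoter table. Capitals mark matches, on either strand, to TTGCNNAA, a core bound by C/EBP factors, and to TATAAA, the TATA box core. Among 32851 promoter windows of this length, 10.8% held TTGCNNAA and 13.6% held TATAAA. Also searched were TTCNNNGAA, a core bound by STAT factors (8.3% of windows), and GAGGAAGT, a core bound by PU.1 (3.2%), and neither is in this window. The first starts 45 bases before the annotated start and the second 14 bases after it, and a match is a description of letters, not of a bound site.
C3: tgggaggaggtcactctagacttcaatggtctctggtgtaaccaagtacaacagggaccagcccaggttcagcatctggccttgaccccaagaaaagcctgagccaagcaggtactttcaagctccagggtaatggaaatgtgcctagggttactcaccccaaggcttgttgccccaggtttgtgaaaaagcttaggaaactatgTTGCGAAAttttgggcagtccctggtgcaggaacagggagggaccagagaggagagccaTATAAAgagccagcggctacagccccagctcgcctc

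The 5 genes most like C3 across the 6 tumors, of 10227 compared by Pearson r of log2(CPM + 0.5), were Ints4 (r = 0.977), Zfp414 (0.959), Dhx40 (0.952), Ipo11 (0.946) and Lurap1l (0.940). They spanned much less than C3 did: Ints4 ranged from 31.2 FPKM in test 3 to 43.6 FPKM in control 2. With n = 6 and so many genes compared, these values of r are a description only.

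Factor D, encoded by Cfd, activates the alternative pathway and is made by fat cells in large amounts. Cfd was at 0.12, 4.21 and 1.70 FPKM in control tumors 1, 2 and 3, and at 165, 40.6 and 1.17 FPKM in test tumors 1, 2 and 3. Test tumors 1 and 2 were high and test 3 lay within the controls. Its log2 fold change was 5.10 (SE 1.60), and 3.47 without test 1. The adjusted p was 0.460 by edgeR's quasi-likelihood test and Benjamini-Hochberg adjustment, from p = 0.0135, and the exact permutation test gave p = 0.3. Without test 1, or with the replicate block, the unadjusted p of Cfd was above 0.05.

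Of the 4 adipocyte markers, Adipoq had the same tumor order as Cfd. Summed over the 4, the markers were high in test tumors 1 and 2 like Cfd but had another order among the controls, at 36.9, 17.8 and 30.7 FPKM in the controls and 314, 82.2 and 22.9 FPKM in the test tumors. Fabp4 was the most abundant, and it is also made by endothelial cells and macrophages. The other 3 summed to 0.15, 2.07 and 1.05 FPKM in controls and 65.0, 9.14 and 0.45 FPKM in test tumors, with Plin1 at 0 in control 1 and test 3. Skeletal muscle markers were high in test 1 as well (389 FPKM summed, against 2.25 to 79.9 in the other tumors, Acta1 the most abundant in the mean over tumors and Tnnt3 in test 1). The part of fat or muscle tissue in the Cfd values was not tested.

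Serping1 encodes the C1 inhibitor, the serpin that blocks C1r and C1s. Serping1 was at 17.9, 26.3 and 21.9 FPKM in control tumors 1, 2 and 3, and at 32.1, 41.1 and 45.8 FPKM in test tumors 1, 2 and 3. All 3 test tumors were above all 3 controls. It was 1.83-fold higher in test tumors, a log2 fold change of 0.87 (SE 0.260). In edgeR's quasi-likelihood test p = 0.0106 became 0.454 after Benjamini-Hochberg adjustment, with a range of 0.149 to 1.00 over the alternatives, and the exact permutation test gave p = 0.1. Leaving out each tumor in turn kept the log2 fold change between 0.78 and 1.03.

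Serping1 had the smallest SE of the 9 genes. Of the fibroblast markers, as a cell type known to make C1 inhibitor, 6 of 8 were higher in mean and 1, Dpt, did not overlap, beside 6.12% of all tested genes. Their sum was 170, 519 and 329 FPKM in control tumors 1, 2 and 3, and 343, 816 and 340 FPKM in test tumors 1, 2 and 3. Col1a1, the most abundant, overlapped between groups, and no fibroblast marker was at 0. The part of fibroblast content in the Serping1 difference was not tested.

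**Figure D3:**
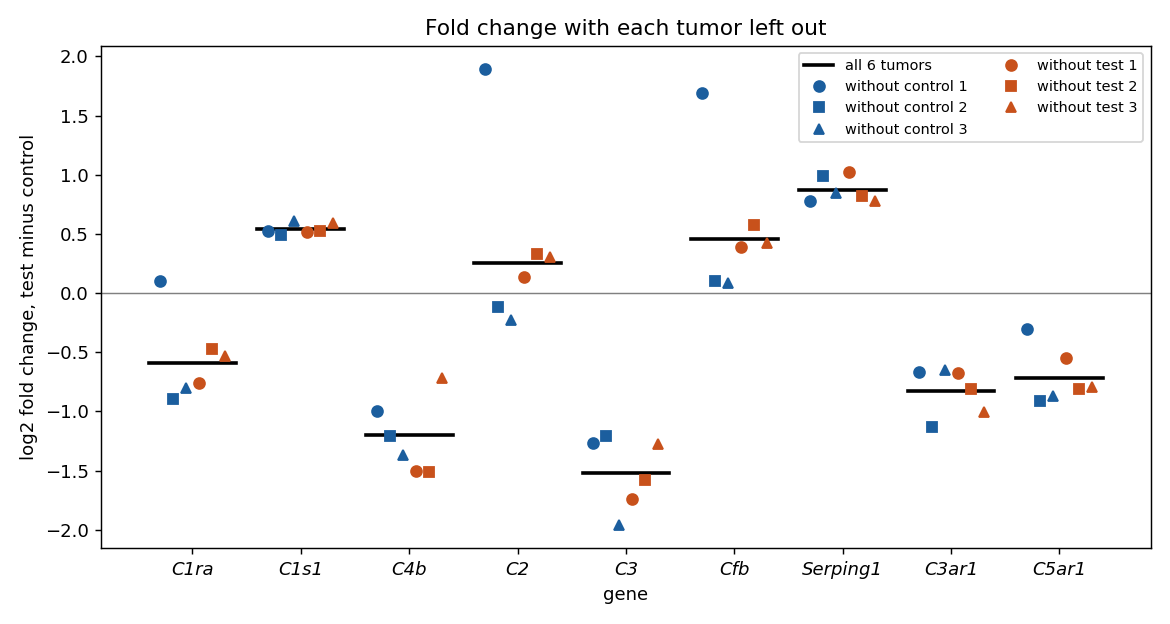
Log2 fold change (test minus control) of each of the 9 genes with all 6 tumors (black line) and with each tumor left out (points; blue, a control left out; orange, a test tumor left out). C1s1 and Serping1 stay close to their values, while C1ra crosses 0 without control 1 and C2 crosses 0 without control 2 or control 3.

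C3ar1 and C5ar1 are the receptors for C3a and C5a on myeloid cells. C3ar1 was at 9.26, 4.55 and 10.4 FPKM in control tumors 1, 2 and 3, and at 3.63, 4.29 and 5.64 FPKM in test tumors 1, 2 and 3. Controls 1 and 3 were high, and control 2 was within the test tumors. C3ar1 had a log2 fold change of -0.83 (SE 0.383), with an adjusted p of 0.630 by edgeR's quasi-likelihood test and Benjamini-Hochberg adjustment. Without control 2 the log2 fold change was -1.13, with an adjusted p of 0.150 by edgeR's quasi-likelihood test after Benjamini-Hochberg adjustment. That adjusted p was the lowest in a range over the alternatives that reached 1.00. The log2 fold change was weaker without control 1 (-0.67), control 3 (-0.65) or test 1 (-0.67). It was little changed without test 2 and stronger without test 3.

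C5ar1 was at 4.44, 2.30 and 2.57 FPKM in control tumors 1, 2 and 3, and at 1.49, 2.05 and 2.12 FPKM in test tumors 1, 2 and 3. The groups did not overlap, but controls 2 and 3 were close to test tumors 2 and 3 and only control 1 stood well above. Its log2 fold change was -0.72 (SE 0.451) and -0.30 without control 1. Counts were 31 to 102 per tumor, and the exact 95% Poisson interval of control 2 (38.0 to 67.1) overlapped that of test 3 (37.1 to 65.9).

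Of the 9 listed complement receptor genes, 7 were tested and 6 of these had a negative log2 fold change, with a median of -0.68. Without control 1 that median was -0.30, the value of C5ar1. Itgam, the alpha chain of complement receptor 3, was at 8.17, 4.89 and 8.32 FPKM in controls and 4.14, 3.38 and 5.07 FPKM in test tumors. Controls 1 and 3 were again high and control 2 lay within the test tumors (log2 fold change -0.76, SE 0.321). By edgeR p = 0.0461 before adjustment, and the exact permutation test gave p = 0.2. The unadjusted p of Itgam was above 0.05 without control 1, control 3, test 1 or test 2 and with limma on FPKM. The ratio of Itgam to its partner chain Itgb2 was 0.761 to 0.856 in the 6 tumors.

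Most of the macrophage markers moved with the receptors in sign. In test tumors 8 of 9 had a negative log2 fold change, with a median of -0.48, and Cd14, which epithelial cells can also express, was the exception with groups that did not overlap (61.6 ± 32.6 FPKM in controls and 126 ± 9.91 FPKM in test tumors, mean ± SD, n = 3 each). The 9 summed to 353.5, 409 and 631 FPKM in control tumors 1, 2 and 3, and to 359, 499 and 307 FPKM in test tumors 1, 2 and 3. Without Lyz2, the most abundant, the sums lay between 182 and 232.5 FPKM, and the groups overlapped. Cd14 made up much of that sum. Without it as well, a choice made after seeing the values, the other 7 summed to 189.5, 83.6 and 176 FPKM in control tumors 1, 2 and 3, and to 95.9, 95.5 and 87.2 FPKM in test tumors 1, 2 and 3, so controls 1 and 3 were high and control 2 lay just below the test tumors. Of the 189.5 FPKM in control 1, Cd68 made up 96.5 FPKM. No macrophage marker was at 0. The C1q chains, made mainly by macrophages but not on this list, did not share the sign of the receptors. Their log2 fold changes were 0.41, 0.22 and 0.03 for C1qa, C1qb and C1qc, and turned negative without test 2. Neutrophil markers, with S100a8 the most abundant, had a negative log2 fold change in 3 of 4 tested. Ly6g and Mpo were at 0 in all tumors. The neutrophil sum was 130, 57.3 and 60.0 FPKM in control tumors 1, 2 and 3. In test tumors 1, 2 and 3 it was 31.2, 40.4 and 81.2 FPKM, so test 3 was above controls 2 and 3. The part of myeloid cell content in the receptor values was not tested.

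The genes most like C3ar1 across the 6 tumors were Lama4 (Pearson r = 0.997, n = 6), Lhfpl2 (0.994), Nid2 (0.991), Cd38 (0.990) and Atp10a (0.989). All 5 were high in controls 1 and 3 and low in control 2 and the test tumors. Nid2, a basement membrane protein, was at 26.7, 3.14 and 22.1 FPKM in the controls and 1.15, 2.99 and 4.92 FPKM in the test tumors. Genes picked for likeness share the pattern of C3ar1 by construction.

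**Figure D4:**
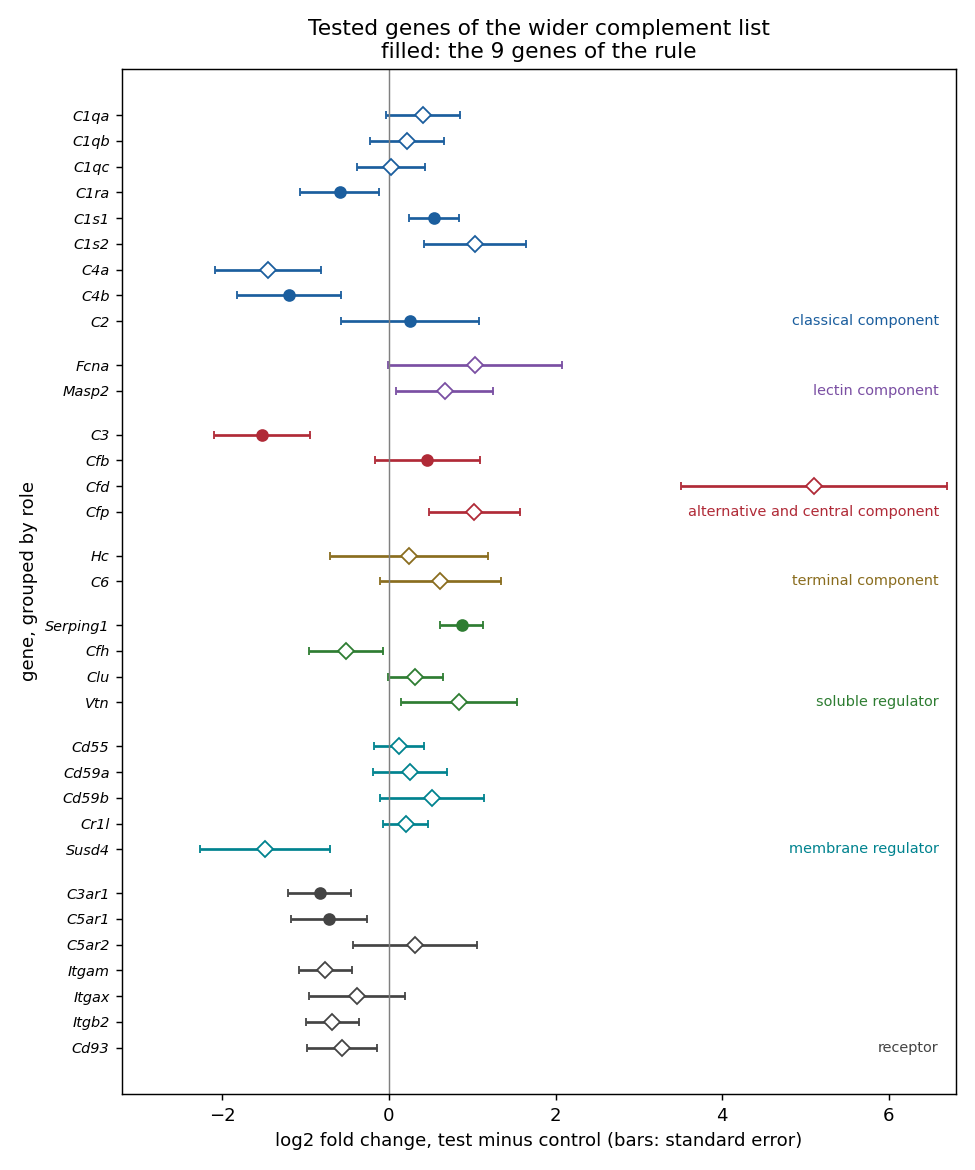
Log2 fold change (test minus control) with its standard error for the 33 tested genes of a list of 54 complement genes, grouped by role; filled circles are the 9 genes described above and open diamonds the others. Cfd is farthest to the right at 5.10 with a wide error, and 6 of 7 receptor genes lie left of 0.

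Across a wider list of 54 complement genes, 48 were listed in at least 1 tumor and 33 were tested. None passed edgeR's quasi-likelihood test and Benjamini-Hochberg adjustment (lowest adjusted p = 0.454, that of Serping1), and DESeq2 and limma called none either. At an unadjusted p under 0.05, 2 were higher (Serping1 and Cfd) and 2 lower (C3 and Itgam), beside 8.41% of all tested genes in either direction. Of these, C3, Cfd and Itgam each rose above 0.05 under some alternatives, as given above. The groups did not overlap for 3 genes above the controls and 3 below, beside 6.12% and 5.87% of all tested genes. Outside the 9 these were 1 and 1 of 24, the copies C1s2 and C4a. The median log2 fold change was 0.24 over the 33, and 0.25 over the 24 that are not among the 9. Both medians turned negative without test 2. Among the 24, C1qa was then at -0.14, C1qb at -0.32, C1qc at -0.41, Cd59a at -0.46 and C5ar2 at -0.20.

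Other regulators with a mean of at least 10 FPKM, Serping1 aside, had groups that overlapped. Clu, a soluble inhibitor of the membrane attack complex, was at 206 ± 31.3 FPKM in controls and 254 ± 79.2 FPKM in test tumors (mean ± SD, n = 3 each), which is 0.32 on the log2 scale (SE 0.329) and 0.004 without test 2. The membrane regulators Cd55 (22.5 ± 1.98 and 24.5 ± 8.74 FPKM), Cd59a (30.7 ± 2.89 and 35.6 ± 22.7 FPKM) and Cr1l, which encodes Crry (32.3 ± 0.242 and 37.2 ± 12.2 FPKM), differed between groups by less than the spread among test tumors. Their log2 fold changes turned with 1 tumor left out, Cd59a to -0.46 without test 2, and Cd55 to -0.05 and Cr1l to -0.06 without test 1. Susd4, another membrane regulator, was at 9.32 FPKM in control 2 and at 1.01 to 1.95 FPKM in the other 5.

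Of the terminal and lectin pathway genes, 2 of 7 and 2 of 8 passed the filter on low counts. Of the 54 genes, 11 had at most 3 counts in every tumor, and Mbl1, Mbl2, Fcnb, C8a, C8b and Cpn1 were listed in none. C9, the pore-forming component, had 3, 5 and 3 counts in the controls and 12, 8 and 13 in the test tumors. Its groups did not overlap, beside 6.12% of all tested genes with test above control. C9 did not pass that filter, so it is not part of that share. Masp2, a lectin pathway protease, had 34 to 160 counts. Of the hepatocyte markers, Ttr was listed in no tumor, Alb had at most 3 counts, Apoa1 at most 4, Fgb at most 9 and Serpina1a at most 25.2. Cyp2e1, the most abundant of that list and also made by fat cells, was at 71.3 FPKM in test 1, the tumor highest in adipocyte markers.

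**Figure D5:**
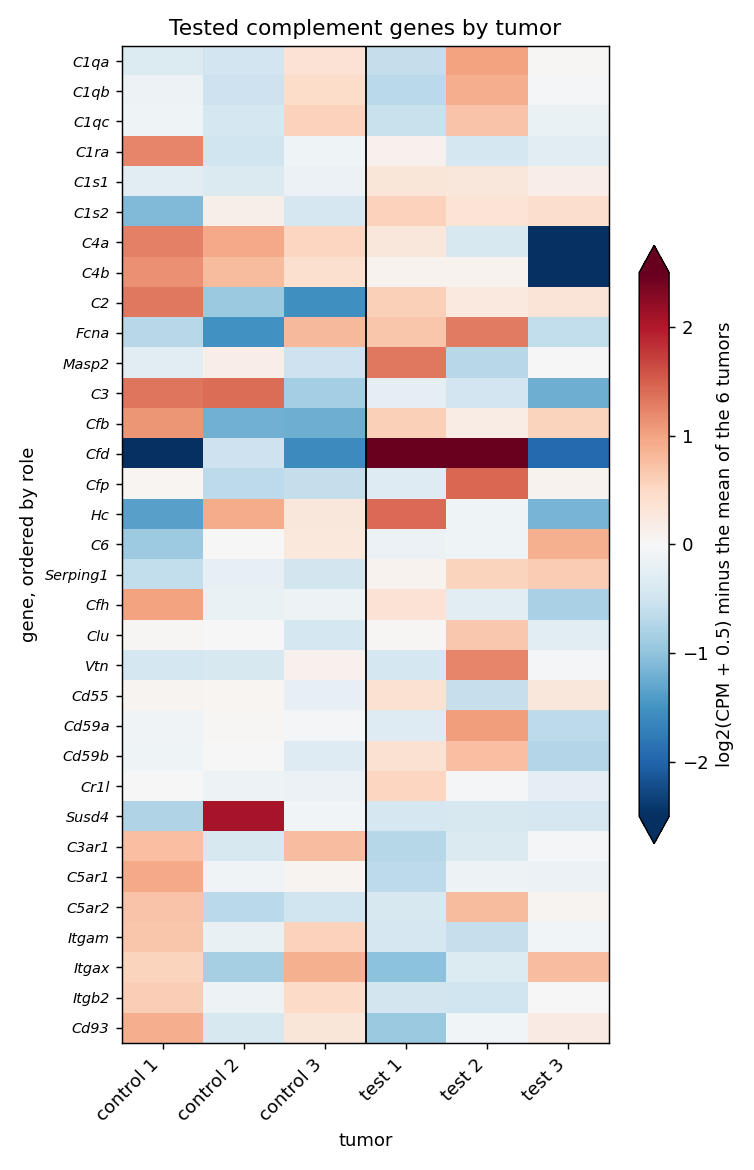
Heat map of the 33 tested complement genes by tumor, each as log2(CPM + 0.5) minus its mean over the 6 tumors, with rows ordered by role and colors capped at the ends of the scale. C2 and Cfb share one pattern, C4a and C4b another with test 3 lowest, and the 3 C1q chains a further one with test 2 highest.

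The remaining marker lists describe the mixture. All 6 epithelial markers had a positive log2 fold change, with a median of 0.87, and Krt8, Krt18 and Krt19 had groups that did not overlap, test above control, beside 6.12% of all tested genes. Epcam, Cdh1 and Elf5 overlapped, and Epcam in control 2, at 401 FPKM, was above all test tumors. The sum of the 6, mostly keratins, was 1091, 2257 and 997 FPKM in control tumors 1, 2 and 3, and 2982, 2905 and 2939 FPKM in test tumors 1, 2 and 3. Control 2 was nearer the test tumors in this sum, as it was for C3ar1 and Itgam. Basal epithelial markers, with Acta2 the most abundant, had a negative log2 fold change in 4 of 5. Their sum was 223, 157 and 992 FPKM in control tumors 1, 2 and 3. It was 346, 245 and 210.5 FPKM in test tumors 1, 2 and 3, so the groups overlapped. Single controls were high, control 3 for Acta2 (682 FPKM) and control 1 for Trp63 (99.3 FPKM). A higher share of epithelial RNA and higher keratin expression cannot be told apart here, and the part of the epithelial markers in the lower receptor values or in the higher C1s1 and Serping1 values was not tested.

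The T cell, B cell and mast cell lists were low apart from Kit. T cell markers summed to 2.59 to 4.42 FPKM, with Lck the most abundant and Trac at 0, and of the B cell markers Cd79a was at most at 0.25 FPKM and Ms4a1 and Pax5 were at 0. The mast cell sum was mostly Kit, which mammary epithelium also expresses, and without Kit it was 1.08, 1.08 and 1.72 FPKM in control tumors 1, 2 and 3, and 3.94, 10.7 and 1.92 FPKM in test tumors 1, 2 and 3. These sums did not overlap, but test 3 was close to control 3, Cpa3, Tpsb2 and Mcpt4 each overlapped, and none of the 4 genes passed the filter on low counts. The groups of Cma1, at 0 in control 1, did not overlap, beside 6.12% of all tested genes with test above control. That share covers only genes that passed the filter, so Cma1 is not part of it. Endothelial markers, led by Pecam1, summed to 29.3 to 41.8 FPKM with groups that overlapped.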

How the data were processed

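The deposited files give, per gene and tumor, an expected count and an FPKM made by the authors. The labels name Bowtie, BWA and RSEM without versions and the build mm10. Genes absent from a tumor were taken as 0, and 18400 of 18460 identifiers matched RefSeq (GRCm38.p6). Expected counts were rounded and tested with edgeR 4.0.16 (TMM scaling, filterByExpr, quasi-likelihood, Benjamini-Hochberg over 13706 genes) in R 4.3.3, a step tested on simulated data. FPKM gives levels between genes. Alternatives were DESeq2 1.42.0, RLE scaling, 2 count filters, limma 3.58.1 on log2 FPKM, a replicate block and leaving out each tumor. The study names several differential expression methods without saying which served these tumors. Named were the 9 genes, wider-list genes with an unadjusted p under 0.05, no overlap or a mean of at least 10 FPKM, copies and C1q chains, each marker list's most abundant gene and genes at 0, and the 5 genes most like C3 and C3ar1; others were named after their values were seen. Of the marker genes, 1 is not reported here. Members and lists were chosen with earlier results of these data known.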

Additional observations from a re-analysis of the deposited data

How the results depend on the processing

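Over 14 alternatives none of the 9 complement genes and none of the wider list was called. The count of all genes called, 0 with edgeR, was 343 with DESeq2 and 1 with limma on log2(FPKM + 1), and leaving out each tumor gave 0 to 182, the highest without control replicate 2; the cause was not tested. Of 125 fold changes of the 9 genes under alternatives, 122 kept their direction. The exceptions were C1ra, whose log2 fold change was -0.89 to 0.11 with 1 tumor left out (reversed without control replicate 1), and C2, at -0.22 to 1.90 (reversed at -0.12 and -0.22 without control replicates 2 and 3). The median log2 fold change of the 9, -0.59, was -0.89 to 0.11 with 1 tumor left out and -0.54 to -0.38 with limma on FPKM or with copies summed, the last chosen after seeing the data. C2 gave no value with at least 10 counts required in every tumor.

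Deviations from the group mean had r of -0.025, 0.122 and -0.137 over genes for control and test tumors with the same number. For tumors with unlike numbers r was -0.163 to 0.218. Deviations within a group of 3 balance each other, so these values cannot tell whether tumors with the same number shared a batch. With the replicate block 0 genes were called, the median of the 9 was -0.41, and no call changed. Groups of 3 and 31 to 102 counts for C5ar1 or 9 to 87 for C2 limit what can be told apart.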
